A study of Mus musculus with 16 samples.

Results

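The genotype by time interaction from day 2 to day 4 asks whether the step that wild-type (WT) mouse embryonic stem cells take between these days is taken to the same extent by TKO cells. It is the log2 change from day 2 to day 4 in TKO minus the same change in WT, and was computed from 8 of the 16 libraries, 2 each for WT day 2, WT day 4, TKO day 2 and TKO day 4, for each of 18489 genes that passed a filter on low counts. A positive value means that a gene's day 4 level, relative to day 2, was higher in TKO than in WT, whether because TKO rose more or because WT fell more. All cells were of the line ES-E14TG2a, kept before day 0 on fibronectin with vitamin C, LIF, a MEK inhibitor and a Gsk3 inhibitor, and differentiated toward epiblast-like cells in Fgf2 and Activin A, with an extra split at day 4. Both genotypes went through the same media, so day 2 and day 4 in both are cells exposed to Fgf2 and Activin A. The labels do not expand TKO, and it was read as a knockout of Dnmt1, Dnmt3a and Dnmt3b, which encode the DNA methyltransferases. The number of independent clones behind the TKO line is not given in the sources used here. The libraries are called biological replicates in the labels, which do not name separate clones or thaws, so p-values measure the spread between these cultures.

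DNA methylation places methyl groups on cytosines of CpG dinucleotides. It is written by Dnmt3a and Dnmt3b, with Dnmt3l as a cofactor, and copied at replication by Dnmt1 with Uhrf1. As embryonic stem cells leave the naive state, the genome is remethylated, and CpG-rich promoters of many germline genes become methylated and silent, while naive factors are switched off and formative epiblast factors come on. Genes of the piRNA pathway, which defends the germline against transposons, and genes of meiosis are classic members of the class silenced in this way.

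Total estimated counts in the 8 libraries ran from 37597097 to 58197630. The levels of the targeted genes were first set against the labels. Dnmt1 stood at 441 and 401 CPM (counts scaled to a common library size) in WT day 2, 313 and 320 in WT day 4, 48 and 52.4 in TKO day 2, and 36.2 and 40.7 in TKO day 4. Dnmt3a stood at 974 and 952 CPM in WT day 2 and 297 and 380 in WT day 4, against 57.3 and 56.9 in TKO day 2, and 187 and 33.9 in TKO day 4. Dnmt3b stood at 1900 and 1700 CPM in WT day 2 and 1520 and 1250 in WT day 4, against 995 and 923 in TKO day 2, and 431 and 757 in TKO day 4. Dnmt1 and Dnmt3b were lower in every TKO library than in any WT library, and so was Dnmt3a, whose 2 TKO day 4 libraries differed most. RNA that remains from a disrupted gene does not show whether protein is made.

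TKO day 4 held the most genes over 2-fold apart between libraries. Of the genes at 5 CPM or more, 166 were over 2-fold apart between its 2 libraries, 77 of them higher in replicate 1 and 89 lower, against 80 in WT day 4, 14 in WT day 2 and 7 in TKO day 2. The median absolute log2 difference between replicates was 0.179 in TKO day 4 and 0.184 in WT day 2. Defining markers of other cell types were examined too. Of the trophoblast markers, Tpbpa was at 0 in all but 2 libraries, whereas Elf5 stood at 0.117 to 0.337 CPM and Gata3 at 0.219 to 0.792 CPM. The endoderm marker Foxa2 stood at 2.71 and 10.7 CPM in WT day 4 and 1.5 and 1.22 in TKO day 4. Its log2 interaction was -1.32 (adjusted p = 0.493 by edgeR), and that of the endoderm marker Gata4 was 0.1 (adjusted p = 0.946). The endoderm marker Sox17 stood at 0.366 and 0.363 CPM in WT day 2, 0.0862 and 0 in WT day 4, 0.984 and 1.34 in TKO day 2, and 1.54 and 0.782 in TKO day 4 (log2 interaction 2.88, adjusted p = 0.0444 by edgeR). Its call was lost without any 1 library but WT day 4 replicate 1 and TKO day 4 replicate 2, with adjusted p from 0.0681 to 0.134. The fibroblast marker Col1a1 stood at 1.08 and 0.778 CPM, then 0.414 and 0.272, in WT and 0.328 and 0.493, then 0.875 and 0.529, in TKO (2.19, adjusted p = 0.0278). This call was lost without either TKO day 2 library, TKO day 4 replicate 1, WT day 2 replicate 1 or WT day 4 replicate 2, with adjusted p from 0.0534 to 0.125. The formative markers Fgf5 and Otx2 stood at 72.2 CPM or more in each library. Fgf5 had an interaction of 0.21 ± 0.29 (log2 ± SE; adjusted p = 0.72) and Otx2 one of -0.07 ± 0.15 (adjusted p = 0.829). Also not called were the neural markers Pax6 (0.7, adjusted p = 0.184) and Tubb3 (0.35, adjusted p = 0.68). The same held for the mesoderm markers Mixl1 (-1.05, adjusted p = 0.249) and Tbx6 (-0.17, adjusted p = 0.882). Nor were the fibroblast marker Col3a1 (1.67, adjusted p = 0.374) and the naive marker Klf4 (0.55, adjusted p = 0.214).

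Across all genes, the interaction was called for 2163 of 18489 (11.7%) at a Benjamini-Hochberg adjusted p under 0.05 in edgeR's quasi-likelihood test. Of these, 1432 (7.75% of all tested) were positive and 731 (3.95%) were negative, around a median of 0.042 over all genes. The positive calls were the larger in size. A change of 2-fold or more was reached by 1065 positive calls (5.76% of the genes tested) and 224 negative ones (1.21%), and the median called value was 1.81 for the positive and -0.77 for the negative. Positive calls also reached into genes of low level: 851 of them stood at 5 CPM or more in at least 1 of the 4 groups and 205 stayed below 1 CPM in all 4, against 660 and 14 of the negative calls. The sign was the same in all 16 ways of taking 1 library per group for 1430 of the positive and all 731 of the negative calls. The calls were made on these same libraries, so this agreement was nearly fixed in advance and is no separate support for them.

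Most positive calls were genes that fell in WT. WT fell from day 2 to day 4 for 475 genes that also fell, but less, in TKO (33.2% of the positive calls), for 467 whose TKO step was not called (32.6%) and for 137 that rose in TKO (9.57%). Another 267 (18.6%) rose in TKO with no called step in WT, and 82 (5.73%) rose in both. The negative calls were mostly genes that rose in WT, 323 of them (44.2%) rising less in TKO and 275 (37.6%) with no called TKO step. Another 72 (9.85%) fell in TKO with no called step in WT, 36 (4.92%) rose in WT and fell in TKO, and 21 (2.87%) fell in both. Over all genes, 26.2% rose and 28.2% fell in WT, and 24.5% rose and 20.9% fell in TKO.

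**Figure D1:**
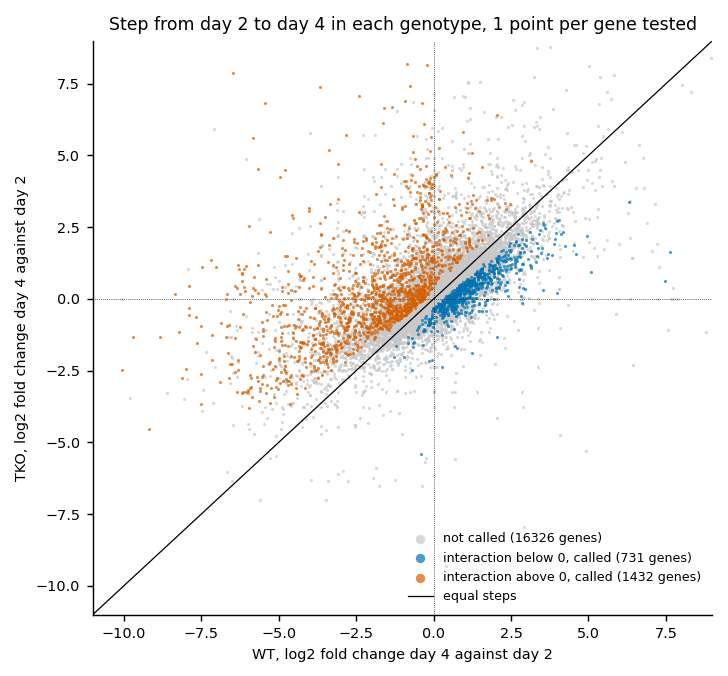
Log2 fold change of day 4 against day 2 in WT (x axis) and in TKO (y axis), 1 point per gene tested, with the 1432 positive calls in orange, the 731 negative calls in blue and the line of equal steps in black (3 genes lie outside the axes). The positive calls lie above the line, mostly left of 0 on the WT axis, where 475 genes fell in both genotypes and 467 fell in WT with no called TKO step.

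Germline genes were called positive in 3 lists. Of 19 piRNA pathway genes tested, 12 were called positive and 1 negative, with a median interaction of 1.65. Of 33 genes of meiotic chromosomes and recombination, 14 were positive and 1 negative (median 0.97), and of 20 other testis-restricted genes 14 were positive and none negative (median 3.08, or 2.86 with the gene that has a group at 0 counts set to its bound). These counts stand beside 7.75% positive calls and a median of 0.042 over all genes. In WT, 12 of the 19, 17 of the 33 and 15 of the 20 fell, whereas in TKO 5, 5 and 4 fell, and 8, 13 and 4 rose. On day 2 itself 4, 7 and 2 were lower in TKO than in WT, a direction called for 5.52% of all genes. Higher in TKO on day 2 were 1, 0 and 4. The summed meiotic level on day 4 was 275 and 322 CPM in WT and 333 and 297 in TKO, so the groups overlapped. The piRNA sums were 115 and 143 against 244 and 225, and the testis-restricted sums 191 and 203 against 312 and 349.

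Promoter sequences of 4 of these genes are shown because methylation at such CpG-rich starts is the textbook route of their silencing; the first 3 carry CACGTG, the E-box bound by Max and Mga dimers of the germline-repressing PRC1.6 complex, and the fourth does not. Each is the 250 bases before the RefSeq start on GRCm38.p6, read 5′ to 3′ on the gene's strand, with CACGTG and GCGGGAA (an E2F6-type site, searched on both strands and printed on the gene's strand) in capitals.
Fkbp6, chr5:135350045-135350294, minus strand: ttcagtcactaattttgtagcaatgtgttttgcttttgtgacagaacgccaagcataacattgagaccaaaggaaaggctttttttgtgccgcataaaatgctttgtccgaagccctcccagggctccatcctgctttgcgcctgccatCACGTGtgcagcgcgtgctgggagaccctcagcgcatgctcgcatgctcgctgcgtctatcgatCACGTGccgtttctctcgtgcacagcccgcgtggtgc
Hormad1, chr3:95559427-95559676, plus strand: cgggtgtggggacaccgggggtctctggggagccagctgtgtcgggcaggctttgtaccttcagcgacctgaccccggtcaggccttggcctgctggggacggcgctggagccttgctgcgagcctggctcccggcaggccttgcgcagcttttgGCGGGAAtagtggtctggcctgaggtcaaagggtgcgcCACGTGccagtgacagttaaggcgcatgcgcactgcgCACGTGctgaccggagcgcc
Taf7l, chrX:134476491-134476740, minus strand: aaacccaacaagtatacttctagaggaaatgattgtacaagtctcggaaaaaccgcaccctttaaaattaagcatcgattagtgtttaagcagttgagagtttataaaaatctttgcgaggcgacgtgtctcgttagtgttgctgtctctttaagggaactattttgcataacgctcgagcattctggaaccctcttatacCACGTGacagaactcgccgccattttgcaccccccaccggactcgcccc
Asz1, chr6:18109062-18109311, minus strand: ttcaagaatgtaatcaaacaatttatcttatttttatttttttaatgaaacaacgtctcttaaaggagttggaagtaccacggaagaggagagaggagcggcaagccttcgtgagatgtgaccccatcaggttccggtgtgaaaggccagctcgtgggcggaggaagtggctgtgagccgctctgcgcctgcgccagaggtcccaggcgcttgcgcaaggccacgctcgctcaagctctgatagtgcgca
Fkbp6 holds CACGTG at 2 places, Hormad1 at 2 places with 1 GCGGGAA, Taf7l at 1 place, and Asz1 neither, and the windows hold 17, 19, 14 and 15 CpG dinucleotides in that order. Of the 40 positive calls in the 3 germline lists, 33 (82.5%) had a RefSeq promoter, of which 9 (27.3%) held CACGTG and 6 (18.2%) held GCGGGAA on either strand. Of the 32 members of these lists that were not called positive, 22 (68.8%) had a promoter in the table, of which 6 (27.3%) held CACGTG and 5 (22.7%) held GCGGGAA, shares no lower than those of the called members. At least 10 CpG were held by 66.7% of the called and 81.8% of the other members' windows. The same held for 68.1% of the promoters of tested genes and 49.9% of those of all positive calls. Of the 11677 promoters of tested genes (63.2% of 18489), 8.16% held CACGTG and 6.58% held GCGGGAA, and 6.02% and 3.82% of all 32851 promoters of that length in the table did. Coverage of 68.8% and 63.2% is too low for a check of these shares, which are a description and tie no motif to the calls. A match describes letters in the window, and no factor's binding or methylation was measured here.

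Among the piRNA genes, Asz1 (chr6:18050964-18109061), a scaffold protein of the granules in which piRNAs are made, moved in opposite directions in the genotypes. It stood at 1.97 and 2.44 CPM in WT day 2, 0.0862 and 0.0627 in WT day 4, 9.81 and 8.68 in TKO day 2, and 21.7 and 29.9 in TKO day 4. All 4 TKO libraries were above all 4 WT libraries, and the interaction was 6.29 ± 0.35 (adjusted p = 1.81e-06). Fkbp6 (chr5:135291704-135350044), a cochaperone of piRNA loading, went from 18 and 22.4 CPM to 1.52 and 1.59 in WT and from 23.5 and 23.4 to 16.3 and 19 in TKO. Only the WT day 4 libraries were low, and the interaction was 3.29 ± 0.20 (adjusted p = 1.81e-06). Gtsf1, a partner of Piwi proteins, fell in WT from 3.88 and 5.89 CPM to 0.121 and 0.167 and was 7.02 and 6.73, then 4.08 and 5.06, in TKO (interaction 4.48 ± 0.48, adjusted p = 7.48e-05). Piwil2, the Piwi protein also called Mili, fell in WT from 20.9 ± 2.4 CPM (SD, n = 2) to 3.53 and 5.39, while TKO held 25.6 and 25.5, then 27.5 and 22.6 (2.21 ± 0.24, adjusted p = 8.2e-05). The list's 1 negative gene, the Tudor-domain gene Tdrd5, rose in both genotypes, from 5.04 and 4.64 to 28.4 and 25 CPM in WT and from 5.6 and 5.04 to 16.4 and 16.4 in TKO (-0.84 ± 0.19, adjusted p = 0.0116). Its call was lost without TKO day 2 replicate 1 (-0.759, adjusted p = 0.0619) and without WT day 2 replicate 2 (-0.781, adjusted p = 0.0516).

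Meiotic genes showed the same forms. Hormad1 (chr3:95559677-95587671), a protein of the meiotic chromosome axis, fell from 41.1 and 45.2 CPM to 0.983 and 1.55 in WT but only from 35.8 and 31.6 to 13.4 and 11.2 in TKO. The 2 day 4 groups did not overlap, and the interaction was 3.65 ± 0.23 (adjusted p = 2.71e-06). Tex11, an X-linked meiotic crossover factor, fell in WT from 16 and 16.5 CPM to 1.71 and 2.32 and stood in TKO at 14.2 and 13.8, then 10.8 and 10.5 (2.63 ± 0.22, adjusted p = 1.99e-05). Taf7l (chrX:134460118-134476490), a germ cell relative of the general transcription factor subunit Taf7, fell in WT from 3.68 and 4.23 CPM to 1.45 and 0.899 and rose in TKO from 1.56 and 1.78 to 5.75 and 6.16 (3.57 ± 0.30, adjusted p = 1.23e-05). Slc25a31, the testis form of the mitochondrial ADP/ATP carrier, also crossed over, from 2.6 and 2.67 down to 0.724 and 0.92 CPM in WT and from 2.02 and 1.76 up to 5.5 and 8.64 in TKO (3.59 ± 0.37, adjusted p = 8.77e-05). For both genes TKO was below WT on day 2 and above it on day 4, with no overlap. By edgeR the day 2 difference was called for Taf7l (adjusted p = 0.00255) but not for Slc25a31 (adjusted p = 0.237). The mismatch-repair gene Msh5 was the list's only negative call, at -0.97 ± 0.25 (adjusted p = 0.024). It was lost in 6 of the 8 leave-one-out fits, with adjusted p from 0.052 to 0.0895, and held without TKO day 4 replicate 2 and without WT day 4 replicate 1.

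Of the other testis-restricted genes, Tuba3b (chr6:145615757-145621479), a testis alpha-tubulin, fell in WT from 16 and 18.8 CPM to 0.155 and 0.355. In TKO it stood at 18.5 ± 0.734 CPM (SD, n = 2) on day 2, then 16.8 and 32.9, and the interaction was 6.54 ± 0.49 (adjusted p = 1.23e-05). Near-identical Tuba3 copies share reads, so the level of a single copy is uncertain. Sohlh2 (chr3:55182028-55209957), a transcription factor of early germ cell differentiation, fell in WT from 49.9 and 50.6 CPM to 1.05 and 2.3 and in TKO from 52.3 and 51.5 to 20.8 and 20.7 (3.61 ± 0.27, adjusted p = 1.23e-05). Tktl2, a transketolase-like gene, fell in WT from 2.36 and 2.41 CPM to 0.0345 and 0.0418, while TKO held 5.74 and 4.71, then 5.17 and 6.07 (5.97 ± 0.37, adjusted p = 2.71e-06). Tex13b, on the X chromosome, fell in WT from 0.792 and 0.83 CPM to 0.362 and 0.293 and rose in TKO from 1.59 and 1.45 to 10.9 and 18.2 (4.55 ± 0.40, adjusted p = 1.6e-05). In all 4 genes the day 4 libraries of TKO lay above those of WT.

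**Figure D2:**
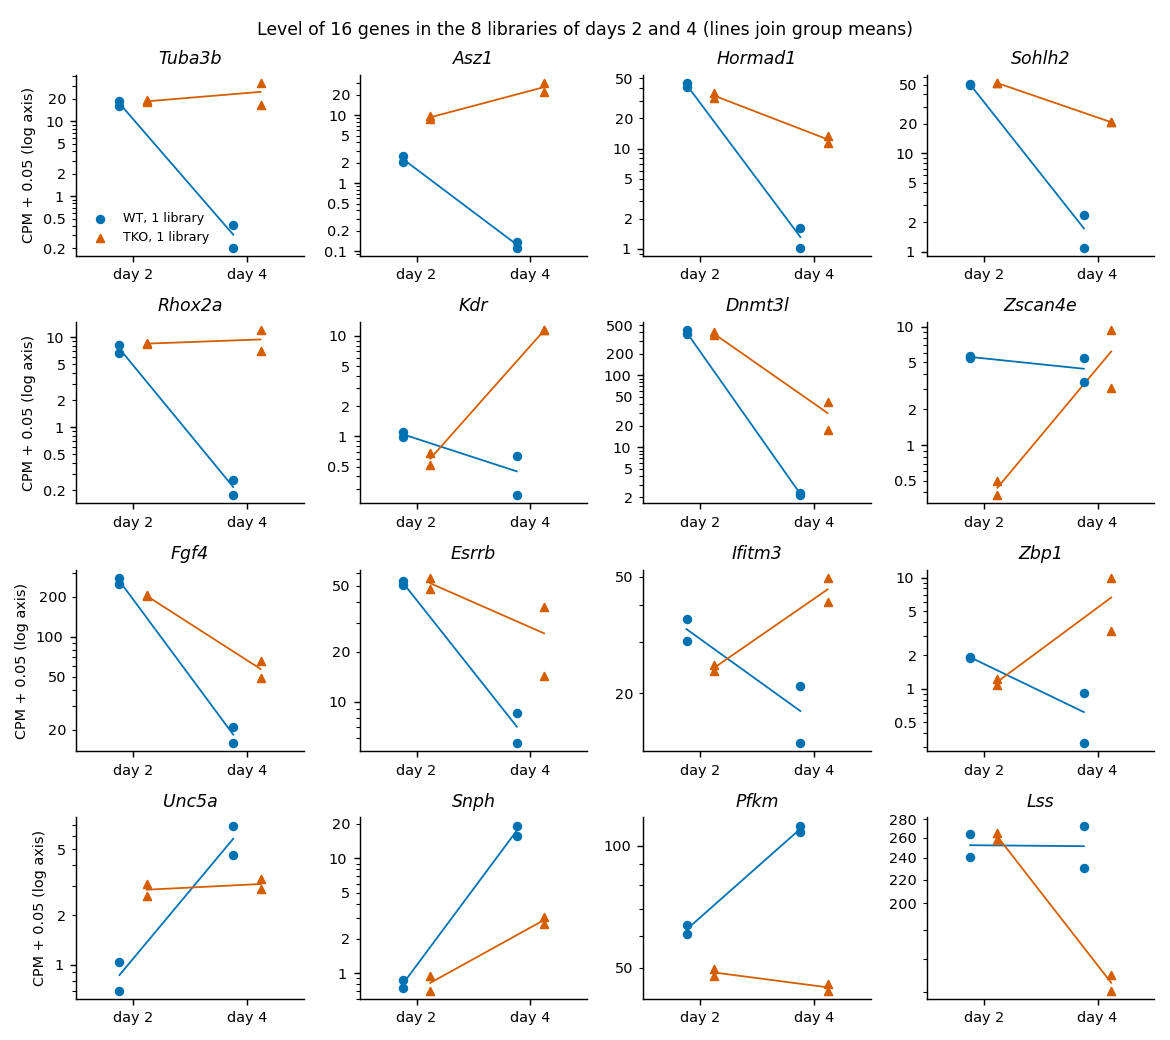
Level of 16 genes in CPM (y axis, log scale, 0.05 added) on day 2 and day 4, with 1 point per library, WT in blue circles and TKO in orange triangles, and lines joining group means. Tuba3b, Hormad1 and Rhox2a fall in WT only or more than in TKO, Asz1, Kdr and Zscan4e rise in TKO, and Unc5a, Snph, Pfkm and Lss end lower in TKO than in WT on day 4.

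Among X-linked Rhox, Xlr and Mage genes, reproductive homeobox genes and testis antigens that form clusters of similar copies, 22 of 32 tested were called positive and none negative. This count stands beside 7.75% positive calls over all genes. Their median interaction was 2.88, or 2.28 with the 7 genes that have a group at 0 counts set to their bounds. In WT 24 of the 32 fell and none rose, and in TKO 13 fell and 6 rose. Rhox2a (chrX:37244976-37249686) fell in WT from 6.7 and 8.17 CPM to 0.207 and 0.125 and stood at 8.61 and 8.33, then 6.96 and 11.9, in TKO (5.58 ± 0.46, adjusted p = 1.22e-05). Rhox1 fell in both genotypes, from 9.87 and 12.3 CPM to 0.121 and 0.0209 in WT and from 12.5 and 11.1 to 2.33 and 3.06 in TKO (5.01 ± 0.46, adjusted p = 3.19e-05). Magea4 had the largest value among called protein-coding genes at 5 CPM or more in a group with 1 sign in all 16 library combinations, 7.51 ± 0.52 (adjusted p = 7.14e-06). It fell in WT from 5.26 and 6.12 CPM to 0.0172 and 0, which is 495 counts on day 2 and 1 count on day 4, a ratio of 597 with a 95% exact interval of 107 to 23600 from counting error alone. In TKO Magea4 fell from 3.47 and 3.8 to 1.31 and 1.59 CPM. Mageb4 fell in WT from 163 counts to 2, a ratio of 98.3 (26.8 to 818), and stood at 2.65 and 2.53, then 3.15 and 3.89 CPM, in TKO (6.84 ± 0.52, adjusted p = 1.22e-05). Xlr4c, with a smaller value, fell in WT from 8.94 and 9.03 to 1.55 and 2.03 CPM and stood at 7.68 and 7.2, then 7.58 and 7.38, in TKO (2.34 ± 0.21, adjusted p = 2.01e-05). Reads shared among copies make the single members uncertain.

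Outside the lists, 2 X-linked genes were among the 10 largest positive values. Pramel3, of the Prame family, fell in WT from 1.06 and 1.12 CPM to 0.0345 and 0.0418 and rose in TKO from 1.91 and 2.35 to 4.06 and 7.93 (6.22 ± 0.60, adjusted p = 5.35e-05). AV320801 fell in WT from 5.38 and 5.91 CPM to 0.414 and 0.355 and rose in TKO from 8.61 and 10.5 to 19.7 and 25.1 (5.08 ± 0.38, adjusted p = 8.3e-06). Srp54b, a copy of the signal recognition particle gene Srp54 on chromosome 12, was also called, at 7.20 ± 2.00 (adjusted p = 0.0411). Its call was lost whichever library other than TKO day 4 replicate 2 was left out, and without TKO day 4 replicate 1 the value was 3.725 (adjusted p = 0.774).

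Genes of the transient embryo-like state in which stem cells express the Zscan4 cluster had the highest list median, and a different form. Of 23 tested, 15 were called positive and none negative (median 4.21, or 4.14 with the gene that has a group at 0 counts at its bound). The positive share over all genes was 7.75%. In 13 of the 15 WT had no called step while TKO rose. In TKO 19 of the 23 rose from day 2 to day 4, and in WT 4 fell. The summed level of the list did not follow this count. It stood at 232 and 252 CPM in WT day 2 and 144 and 162 in WT day 4. In TKO it was 175 and 160 CPM on day 2 and 189 and 138 on day 4. The sums thus overlapped between the days in TKO, and between the genotypes on day 4. On day 2 itself 13 of the 23 were lower in TKO than in WT, a direction called for 5.52% of all genes. On day 4, 6 were higher in TKO, a direction called for 17.8% of all genes. Zscan4e (chr7:11306378-11310682), a zinc finger gene of the cluster, stood at 5.38 and 5.63 CPM in WT day 2, 3.38 and 5.35 in WT day 4, 0.328 and 0.446 in TKO day 2, and 9.25 and 2.99 in TKO day 4. TKO day 2 was the only low group, the day 4 groups overlapped, and the interaction was 4.31 ± 0.77 (adjusted p = 0.00507). Tmem92 stood at 1.93 and 2.02 CPM, then 1.52 and 2.74, in WT and rose in TKO from 0.437 and 0.352 to 8.67 and 6.9 (4.21 ± 0.58, adjusted p = 0.000746). Usp17le, of a deubiquitinase family with many copies, stood at 1.67 and 1.43, then 1.24 and 1.69 CPM, in WT and rose in TKO from 0.0547 and 0.0704 to 5.08 and 1.45 (5.73 ± 1.03, adjusted p = 0.00448). Sp110 stood at 0.569 and 0.571, then 0.431 and 0.397 CPM, in WT and rose in TKO from 0.191 and 0.188 to 1.15 and 1.54 (3.26 ± 0.46, adjusted p = 0.000599). The count of 15 depended on the day 2 libraries: it was 8 without TKO day 2 replicate 1 and 9 without TKO day 2 replicate 2. Near-identical Zscan4 and Usp17l copies share reads.

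Of 20 naive pluripotency genes tested, 9 were called positive and none negative, with a median of 0.90, and 7 of the 9 fell in both genotypes. The positive share over all genes was 7.75%. With only the 8 libraries of days 2 and 4 fitted, the count was 5. In WT 15 of the 20 fell and in TKO 12. Fgf4 (chr7:144847367-144865243), the growth factor that naive cells secrete to trigger their own exit, fell from 248 and 275 CPM to 15.9 and 20.8 in WT and from 200.0 and 204 to 48.8 and 65.5 in TKO. The day 4 groups did not overlap, and the interaction was 2.01 ± 0.19 (adjusted p = 2.43e-05). Nr0b1, the X-linked nuclear receptor Dax1, fell from 36.9 and 47.1 CPM to 0.379 and 0.669 in WT and from 48.7 and 53.3 to 4.33 and 6.46 in TKO (3.10 ± 0.41, adjusted p = 0.000507). Dppa3, also called Stella, fell from 2.32 and 4.1 CPM to 0.138 and 0.125 in WT and from 2.38 and 1.5 to 1.08 and 0.368 in TKO (3.17 ± 0.72, adjusted p = 0.0138). Its call was lost without TKO day 4 replicate 1 (2.145, adjusted p = 0.119) and without WT day 4 replicate 1 (3.222, adjusted p = 0.0654).

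For the naive markers Esrrb and Zfp42, 1 library of TKO day 4 stood apart. Esrrb stood at 50.9 and 53.3 CPM in WT day 2, 5.59 and 8.45 in WT day 4, 47.9 and 55.7 in TKO day 2, and 37.3 and 14.3 in TKO day 4 (1.90 ± 0.47, adjusted p = 0.0253). Its call was lost without either library of TKO day 2 (1.793, adjusted p = 0.0928, and 2.01, adjusted p = 0.0643), either library of WT day 2 (1.933, adjusted p = 0.0671, and 1.863, adjusted p = 0.0906) or WT day 4 replicate 1 (1.597, adjusted p = 0.105), without a filter (adjusted p = 0.0771) and with only the 8 libraries fitted (adjusted p = 0.15). Zfp42, also called Rex1, went from 85.6 and 102 CPM to 6.91 and 8.88 in WT and from 83.1 and 87.7 to 24 and 13.6 in TKO (1.39 ± 0.30, adjusted p = 0.0106), a call lost without WT day 2 replicate 2 (1.26, adjusted p = 0.0518) and without WT day 4 replicate 1 (1.194, adjusted p = 0.0522), and with only the 8 libraries fitted (adjusted p = 0.0752). The summed level of the 20 naive genes was 583 and 835 CPM in WT day 4, and 1190 and 802 in TKO day 4, so the groups overlapped. In bulk RNA, more cells that keep a gene on and more RNA per cell cannot be told apart. Without TKO day 4 replicate 1 the list held 6 positive calls and without replicate 2 it held 13.

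Of 20 formative and primed epiblast genes, 4 were positive and 1 negative (median 0.06), and without TKO day 4 replicate 2 the negative count was 5. The shares over all genes were 7.75% positive and 3.95% negative. All 4 positive calls fell in WT, and 3 of them fell in TKO too. Pou3f1, also called Oct6, fell from 140 and 157 CPM to 49.7 and 45.6 in WT and from 121 and 118 to 67.4 and 90.6 in TKO (1.04 ± 0.21, adjusted p = 0.00615). Lef1, a Wnt-responsive transcription factor, fell from 154 and 161 CPM to 38 and 32.6 in WT and from 114 and 123 to 45.2 and 47.2 in TKO (0.80 ± 0.13, adjusted p = 0.00156). Etv4, a transcription factor induced by FGF, fell in WT from 98.5 and 106 to 56.8 and 59.2 CPM and stood at 107 and 114, then 108 and 93, in TKO (0.68 ± 0.13, adjusted p = 0.00528). The kinase gene Pim2 was the negative call: it rose in WT from 496 and 524 to 692 and 689 CPM and fell in TKO from 393 and 399 to 326 and 280 (-0.83 ± 0.12, adjusted p = 0.000783).

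Of 13 genes of the DNA methylation machinery, 2 were positive and none negative (median 0.03), and 7 fell in each genotype. Among all genes 7.75% were positive and 3.95% negative, and 28.2% fell in WT and 20.9% in TKO. The positive count was 4 by DESeq2 and without TKO day 4 replicate 2, and 1 without WT day 2 replicate 2 or any 1 library of WT day 4 or TKO day 2. Dnmt3l (chr10:78041947-78063622) had the largest value. It fell from 372 and 421 CPM to 2.1 and 2.28 in WT and from 364 and 395 to 42.2 and 17.4 in TKO, so that TKO day 4 lay above WT day 4 without overlap (3.83 ± 0.45, adjusted p = 0.000428). With a replicate block and only the 8 libraries fitted, the Dnmt3l call was lost (3.786, adjusted p = 0.052 by edgeR). The other positive call was the glycosylase gene Tdg, at 0.40 ± 0.11 (adjusted p = 0.0325), which was lost without any library but WT day 2 replicate 1 and TKO day 4 replicate 2, with adjusted p from 0.0591 to 0.136. Uhrf1 fell in both genotypes, and its interaction was 0.11 ± 0.10 (adjusted p = 0.556). For the residual transcripts of the 3 targeted genes, the interaction was 0.03 ± 0.13 for Dnmt1 (adjusted p = 0.928), 2.46 ± 0.78 for Dnmt3a (adjusted p = 0.0745) and -0.31 ± 0.26 for Dnmt3b (adjusted p = 0.509). DESeq2 called Dnmt3a (2.47, adjusted p = 0.0242), and so did edgeR with a stricter filter on low counts (2.443, adjusted p = 0.0487). Both Dnmt3a and Dnmt3b depended on the TKO day 4 library used: without replicate 1 they were 0.728 (adjusted p = 0.0198) and 0.011, and without replicate 2 they were 3.195 (adjusted p = 5.99e-07) and -0.799 (adjusted p = 0.00587).

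**Figure D3:**
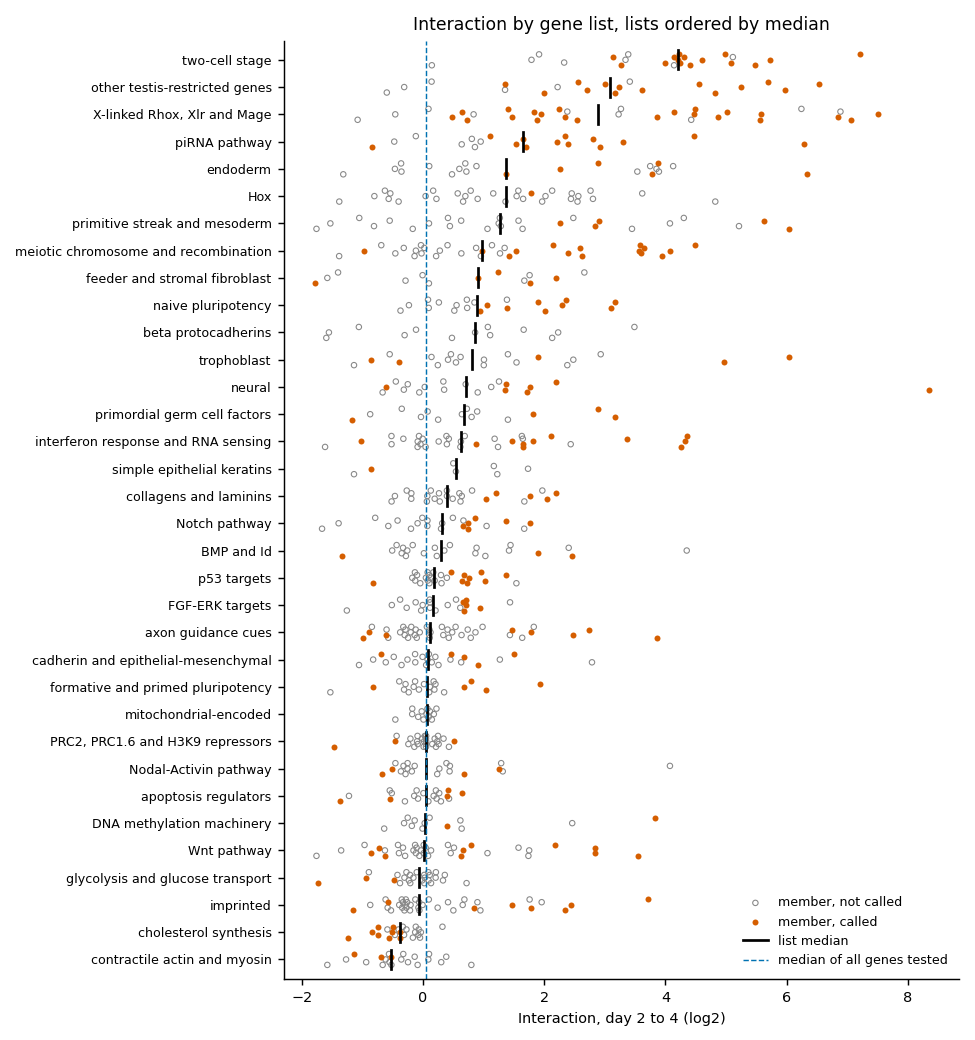
Interaction (x axis, log2) of each tested member of the 34 gene lists (y axis), called members filled in orange, others open, with the list median as a black bar and the median of all genes, 0.042, as a dashed line. The lists of the Zscan4 state (labelled two-cell stage), testis-restricted genes, X-linked Rhox, Xlr and Mage genes and piRNA genes have the highest medians, from 4.21 to 1.65, and contractile and cholesterol genes the lowest, -0.52 and -0.38.

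Where edgeR called no member in a direction, the members at an unadjusted p under 0.05 in that direction were also counted. There was 1 negative gene each for the naive, testis-restricted, DNA methylation, Notch, FGF-ERK and streak lists, and none for the Zscan4-state, X-linked Rhox, Xlr and Mage, and endoderm lists. For positive genes there were 2 in the glycolysis list and none in the cholesterol and contractile lists. DESeq2 called 1 of the FGF-ERK genes negative and 1 of the glycolysis genes positive, and no other in these directions.

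Markers of later lineages were called in part, and their counts stand beside 7.75% positive and 3.95% negative calls over all genes. In the streak and mesoderm list 5 of 26 were positive (median 1.28, 1.16 at bounds), in the endoderm list 6 of 21 (median 1.36), in the neural list 6 of 19 with 1 negative (median 0.70), in the trophoblast list 3 of 20 with 2 negative (median 0.81) and in the fibroblast list 4 of 13 with 1 negative (median 0.91). The endoderm count was 10 without TKO day 4 replicate 2 and fell to between 1 and 4 without any of the other 7 libraries. The neural count was 3 or 4 without any library of TKO day 2, WT day 2 or WT day 4, and the streak and mesoderm count was 3 without TKO day 2 replicate 1 and 10 without TKO day 4 replicate 2. The trophoblast count was 6 without TKO day 4 replicate 2, and the fibroblast count was 2 without either TKO day 2 library, WT day 2 replicate 1 or WT day 4 replicate 2. The summed level of the endoderm list was 1260 and 2480 CPM in WT day 4 and 3580 and 3930 in TKO day 4, most of it from the hormone gene Trh, at 917 and 2180, then 2960 and 3590. Summed streak and mesoderm genes stood at 118 and 276 CPM in WT day 4 and 219 and 168 in TKO day 4. Summed neural genes stood at 421 and 333, and 442 and 523. The trophoblast sums were 252 and 212 CPM in WT day 4 and 168 and 128 in TKO day 4, lower in TKO without overlap. Summed fibroblast genes stood at 134 and 80.4 CPM in WT day 4 and 162 and 165 in TKO day 4.

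Kdr (chr5:75932827-75978458), the receptor for VEGF on vascular and mesodermal cells, stood out among them. It stood at 0.934 and 1.06 CPM in WT day 2, 0.586 and 0.209 in WT day 4, 0.465 and 0.633 in TKO day 2, and 11.3 and 11.3 in TKO day 4. Both TKO day 4 libraries were far above the other 6, and the interaction was 5.62 ± 0.46 (adjusted p = 1.22e-05). The mesoderm marker T, in contrast, varied within groups, at 3.81 and 15.1 CPM in WT day 4 and 5.71 and 1.03 in TKO day 4 (-0.81 ± 2.26, adjusted p = 0.873). Wnt5a, a noncanonical Wnt ligand, rose in TKO from 0.219 and 0.0938 to 0.708 and 0.667 CPM with WT at 0.711 and 0.545, then 0.448 and 0.334 (2.83 ± 0.56, adjusted p = 0.00563). Gata2 rose in TKO from 0.711 and 0.633 to 3.88 and 1.63 CPM and fell in WT from 0.731 and 0.908 to 0.103 and 0.105 (4.97 ± 0.60, adjusted p = 0.00018). Sox1, the earliest neural plate marker, fell in WT from 34.1 and 39.3 to 17.3 and 17.7 CPM and stood at 48.8 and 58.7, then 56.4 and 74.3, in TKO (1.35 ± 0.21, adjusted p = 0.00104). The fibroblast and matrix gene Col1a2, on chromosome 6, rose in TKO from 2.54 and 2.79 to 8.75 and 4.83 CPM with WT at 2.58 and 2.8, then 2.03 and 1.97 (1.77 ± 0.33, adjusted p = 0.0039), while the stromal marker Thy1 rose in WT only, from 5.5 and 3.79 to 19.9 and 10.9 CPM, against 4.81 and 5.25, then 4.83 and 4.87, in TKO (-1.78 ± 0.40, adjusted p = 0.0116). The Thy1 call was lost without WT day 2 replicate 2 (-1.542, adjusted p = 0.0561). Of 31 Hox genes, 1, Hoxd13, was positive, 7 were without TKO day 4 replicate 2, and none was without TKO day 2 replicate 2 or WT day 4 replicate 1. The Hox list had a median of 1.36, or 1.16 at bounds, and 11 members were positive at an unadjusted p under 0.05. In WT 17 of the 31 fell and in TKO 8, and none rose in either genotype. On day 4, 13 were higher in TKO than in WT, a direction called for 17.8% of all genes. Hoxd13, a homeobox gene, fell in WT from 4.89 and 5.58 to 0.707 and 0.732 CPM and in TKO from 9.51 and 8.89 to 5.81 and 2.9 (1.78 ± 0.41, adjusted p = 0.0134), or 1.164 without TKO day 4 replicate 1. Of 13 beta protocadherins none was called by edgeR or by DESeq2, and 2 were positive at an unadjusted p under 0.05. The counts of both lists stand beside 7.75% positive calls over all genes. An unadjusted p under 0.05 was reached by 4773 of 18489 genes in either direction.

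Of 20 FGF-ERK targets 5 were positive and none negative (median 0.16). This count and that of the Notch list stand beside 7.75% positive calls over all genes. Myc fell in WT from 72.6 and 82.9 to 21.4 and 23.8 CPM and in TKO from 56.1 and 63.2 to 34.9 and 31.9 (0.95 ± 0.15, adjusted p = 0.00101). Of 22 Notch genes 6 were positive (median 0.31), a count of 2 without TKO day 2 replicate 1 or WT day 2 replicate 2, and 3 without WT day 4 replicate 1. The Notch ligand Dll1 fell in WT from 30.3 and 34.3 to 7.28 and 5.94 CPM and stood at 36.3 and 39.4, then 19.4 and 33.3, in TKO (1.76 ± 0.30, adjusted p = 0.00202).

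The counts of the Wnt, BMP and Nodal lists stand beside 7.75% positive and 3.95% negative calls over all genes, and those of BMP and Nodal rest on 1 or 2 genes per direction. In the Wnt list 7 of 36 were positive and 3 negative (median 0.01). The positive count was 3 without either TKO day 2 library or WT day 4 replicate 1, and 4 without WT day 2 replicate 2, and the negative count was 1 without either TKO day 2 library and 5 without TKO day 4 replicate 1. Notum, a secreted Wnt antagonist, fell from 8.47 and 11.4 CPM to 0.241 and 0.188 in WT and from 9.59 and 11.6 to 1.52 and 1.84 in TKO (2.84 ± 0.35, adjusted p = 0.00021), and Tcf7, a Wnt effector, rose in WT from 74.8 and 76.3 to 113 and 121 CPM against 81.3 and 79.8, then 73.8 and 77.9, in TKO (-0.72 ± 0.10, adjusted p = 0.000436). Of 22 BMP and Id genes, 2 were positive, or 1 without WT day 2 replicate 2, WT day 4 replicate 1 or TKO day 2 replicate 1, and 1 was negative, or none without TKO day 2 replicate 2. The BMP target Id2 fell in WT from 10.7 and 14.1 to 5.64 and 5.21 CPM and rose in TKO from 10 and 8.47 to 10.9 and 19.3 (1.89 ± 0.33, adjusted p = 0.00239). Among 20 Nodal-Activin genes, 2 were positive, or 8 without WT day 4 replicate 2, and 2 negative. Gdf3, a Nodal-related ligand on chromosome 6, fell in WT from 157 and 181 to 59.1 and 78.6 CPM and stood at 168 and 159, then 168 and 148, in TKO (1.25 ± 0.20, adjusted p = 0.0017), and the proprotein convertase gene Furin rose from 15.7 and 14.6 to 54.5 and 55.9 CPM in WT and from 21.8 and 22.9 to 50.9 and 51.3 in TKO (-0.67 ± 0.11, adjusted p = 0.00156).

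Beside 7.75% positive and 3.95% negative calls over all genes, interferon response and RNA sensing genes were positive in 10 of 33 and negative in 1 (median 0.63). The count was 5 without TKO day 2 replicate 2, 6 without WT day 2 replicate 1 and 6 without WT day 4 replicate 1. Zbp1 (chr2:173206612-173218923), a sensor of Z-form nucleic acids, fell in WT from 1.85 and 1.89 to 0.276 and 0.857 CPM and rose in TKO from 1.18 and 1.03 to 3.27 and 9.84 (4.32 ± 0.77, adjusted p = 0.00337). Ifitm3, an interferon-induced membrane protein also expressed in primordial germ cells, fell in WT from 30.2 and 35.9 to 21.2 and 13.5 CPM and rose in TKO from 25 and 23.7 to 41 and 49.4 (1.81 ± 0.27, adjusted p = 0.0009). For both genes TKO was below WT on day 2 and above it on day 4, without overlap. The day 2 difference was called for neither by edgeR (adjusted p = 0.374 for Zbp1 and 0.14 for Ifitm3). The interferon signal transducer Stat2 went the other way, at 20.7 and 18.5, then 39.4 and 27.3 CPM, in WT and 26.1 and 24.7, then 24.7 and 17.6, in TKO (-1.03 ± 0.23, adjusted p = 0.0125), a call lost without TKO day 2 replicate 1 (-0.989, adjusted p = 0.0501) and without WT day 2 replicate 2 (-0.952, adjusted p = 0.0574).

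Of 26 p53 targets, 8 were positive and 1 negative (median 0.18), beside 7.75% positive and 3.95% negative calls over all genes. Cdkn1a, the cell-cycle inhibitor p21, fell in WT from 70 and 73.4 to 56.6 and 50.7 CPM and rose in TKO from 106 and 109 to 141 and 132 (0.76 ± 0.13, adjusted p = 0.00178), with TKO above WT on both days. Pmaip1, the proapoptotic gene Noxa, fell in WT from 58.2 and 64.4 to 36.4 and 42.7 CPM and rose in TKO from 60.5 and 50.1 to 97.9 and 85.5 (1.36 ± 0.20, adjusted p = 0.000692), and on day 2 its groups overlapped.

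Of the imprinted genes, 6 of 38 were positive and 2 negative (median -0.07), beside 7.75% positive and 3.95% negative calls over all genes. Cdkn1c, an inhibitor of the cell cycle expressed from the maternal allele, fell from 17.6 and 23.7 to 1.83 and 1.99 CPM in WT and from 21.5 and 21.6 to 11.9 and 8.35 in TKO (2.35 ± 0.30, adjusted p = 0.000349), and Asb4, on chromosome 6, rose in TKO from 0.191 and 0.328 to 3.1 and 3.52 CPM with WT at 0.305 and 0.415, then 0.241 and 0.439 (3.72 ± 0.46, adjusted p = 0.000241).

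Cholesterol synthesis genes were negative in 9 of 23 and positive in none, with a median of -0.38, beside 3.95% negative calls over all genes. In 8 of the 9 TKO fell with no called step in WT. In TKO 22 of the 23 fell, and in WT 11 fell and 1 rose. Lss (chr10:76531588-76557138), lanosterol synthase, stood at 264 and 241, then 273 and 230 CPM, in WT and fell in TKO from 258 and 265 to 150 and 141. Its TKO day 4 libraries were the only low ones, and the interaction was -0.84 ± 0.12 (adjusted p = 0.000778). Of 26 glycolysis and glucose transport gene entries, which come from 25 gene symbols, 3 were negative and none positive (median -0.06). On day 2 itself 9 of the 26 were lower in TKO than in WT, a direction called for 5.52% of all genes. Pfkm (chr15:98092589-98132451), the muscle form of phosphofructokinase, rose in WT from 63.7 and 60.5 to 112 and 108 CPM against 49.5 and 47.8, then 45.5 and 43.9, in TKO (-0.95 ± 0.11, adjusted p = 0.00018), and the aldolase gene Aldoc rose from 6.09 and 5.89 to 32.8 and 49.3 CPM in WT and from 5.96 and 6.59 to 12.6 and 13.2 in TKO (-1.73 ± 0.23, adjusted p = 0.000397). Contractile actin and myosin genes were negative in 3 of 21 and positive in none (median -0.52), with 18 rising in WT and 17 in TKO. Among all genes 3.95% were negative, and 26.2% rose in WT and 24.5% in TKO. The contractile count was 1 without either TKO day 2 library, WT day 2 replicate 2 or WT day 4 replicate 1, and 6 without WT day 4 replicate 2. None of 13 mitochondrial-encoded genes was called by edgeR or by DESeq2, and 1 was negative at an unadjusted p under 0.05. That threshold was passed by 4773 of 18489 genes in either direction.

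Of the 10 largest negative values, 9 were genes that rose in WT. Unc5a (chr13:54949411-55006018), a receptor for the guidance cue netrin, rose in WT from 0.65 and 0.986 to 4.59 and 6.88 CPM and stood in TKO at 2.54 and 3.05, then 3.23 and 2.83 (-2.70 ± 0.43, adjusted p = 0.00141). TKO was above WT on day 2 and below it on day 4. Snph (chr2:151590549-151632593), syntaphilin, which anchors mitochondria in axons, rose in WT from 0.69 and 0.83 to 17.4 ± 2.52 CPM (SD, n = 2) and in TKO from 0.656 and 0.891 to 2.65 and 3.06 (-2.65 ± 0.28, adjusted p = 7.83e-05). Its groups overlapped on day 2 and were far apart on day 4. Frem2, an extracellular matrix protein, rose in WT from 3.37 and 2.57 to 23.3 and 16.7 CPM against 6.56 and 7.69, then 11.4 and 7.63, in TKO (-2.32 ± 0.32, adjusted p = 0.000518). Boc, a coreceptor of Hedgehog, rose in WT from 2.03 and 1.56 to 9.38 and 9.37 CPM against 3.39 and 4.29, then 5.35 and 4.16, in TKO (-2.07 ± 0.29, adjusted p = 0.000634). The homeobox gene Nkx1-2 had no called step in WT (-0.13, adjusted p = 0.699) and fell in TKO, from 6.64 and 5.42 to 1.19 and 1.52 CPM with WT at 6.25 and 6.41, then 3.57 and 8.03 (-2.02 ± 0.41, adjusted p = 0.00639), and without WT day 4 replicate 2 it was -1.328 (adjusted p = 0.00443). The others were Lurap1l (-2.38), Rab37 (-2.01), Pla2r1 (-2.61), Hrc (-2.04) and Adhfe1 (-2.04), of which Pla2r1 lost its call without TKO day 2 replicate 2 (adjusted p = 0.0535) or WT day 2 replicate 2 (adjusted p = 0.0556), Hrc without TKO day 2 replicate 1 (adjusted p = 0.0842) and Adhfe1 without TKO day 2 replicate 2 (adjusted p = 0.056).

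Calls were also counted by chromosome. On chromosome 6, 112 of 932 genes were positive (12.0%) and 21 negative, with a median of 0.18, and on the X chromosome 122 of 749 were positive (16.3%), with a median of 0.11, whereas the other autosomes held 5.23% to 8.66%. The chromosome 6 median of 478 genes at 10 CPM or more, each library against WT of the same day, was already above 0 in TKO day 2, at 0.109 and 0.107, and stood at 0.269 and 0.132 in TKO day 4, while each other chromosome had a median below 0 in these 4 libraries. The chromosome 6 share was 7.26% without TKO day 4 replicate 1 and 14.1% without replicate 2. With chromosome 6 left out of the counts, 1320 of 17557 genes were positive (7.52%) and 710 negative (4.04%). Asz1, Tuba3b, Dppa3, Gata2, Col1a2, Asb4 and Gdf3 lie on chromosome 6, and the part of this shift in their values was not tested; of the 22 positive X-linked Rhox, Xlr and Mage genes and the 15 of the Zscan4 state none lies there.

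**Figure D4:**
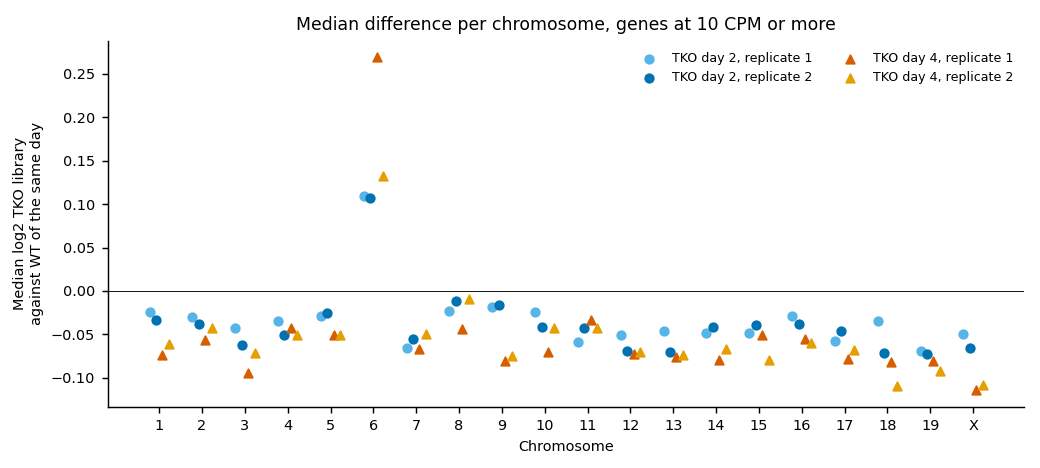
Median log2 difference of each TKO library of day 2 (circles) and day 4 (triangles) from the WT mean of the same day, for genes at 10 CPM or more on each chromosome (x axis). Chromosome 6 is the only chromosome above 0, from 0.107 and 0.109 on day 2 to 0.269 and 0.132 on day 4.

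The neighbouring intervals share libraries with this one, day 2 with the interval from day 0 and day 4 with the interval to day 7, so their values are given side by side without a comparison. The interaction was called positive for 1065 genes (5.76%) and negative for 333 (1.8%) from day 0 to day 2, and for 1657 (8.96%) and 1814 (9.81%) from day 4 to day 7. Asz1 had values of 2.19, 6.29 and 5.67 in the 3 intervals in order, each called. Zscan4e had -3.92 (adjusted p = 0.744), 4.31 and 12.14, and on day 7 TKO held 96.3 CPM and WT 0.0121. Kdr had -2.36, 5.62 and -3.30, all called, with 2.96 CPM on day 7 in TKO against 1.06 in WT. Fgf4 had -0.34 (adjusted p = 0.309), 2.01 and -3.17, with day 7 levels of 2.35 CPM for TKO and 6.77 for WT. Snph had -0.08 (adjusted p = 1), -2.65 and 2.74, ending at 4.17 CPM in TKO and 3.81 in WT on day 7.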

How the data were processed

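RNA was sequenced from 16 libraries, of which the 8 of days 2 and 4 enter the interaction; grouping follows their titles. The authors deposited estimated counts per transcript, not normalized, under kallisto's column names. The authors also deposited TPM, scaled for length and depth, and an effective length, a value of other kind, as the file headers name them. Kallisto, GRCm38 and mm10 are named by the submitters' processing notes; the transcript release is not given in the sources used here. TPM was not used. A transcript was assigned to a gene by its identifier in GENCODE vM21 (GRCm38), which matched 116728 of 119414 transcripts (97.8%); unmatched transcripts held 0.95% to 1.05% of counts. For each gene the estimated counts were added up, then rounded to whole numbers.

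All 16 libraries were fitted with edgeR 4.0.16 in R 4.3.3 (TMM, filterByExpr, quasi-likelihood, robust), 1 mean per group, 8 residual degrees of freedom, common biological coefficient of variation 0.111. The interaction and the step within each genotype were contrasts of this fit, with calls made at 0.05 on p-values adjusted by Benjamini-Hochberg across 18489 genes. CPM are counts scaled by effective library size; ± beside a log2 value is the SE. Bounds use a floor of 3 counts over a group, and intervals cover counting error only. The script was tested on simulated counts. Alternatives were run for the interaction only: DESeq2 1.42.0, RLE scaling, other filters, 8 libraries alone, a replicate block, an effective-length offset and leaving out each library.

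The members described, the gene lists and the naming rule were chosen with earlier results of these data known. By that rule the text draws on Dnmt1, Dnmt3a, Dnmt3b, Dnmt3l and Uhrf1, on the 10 largest called values in each direction (protein-coding, 5 CPM or more in a group, same sign in all 16 combinations of libraries, predicted genes left out), and for each of the 34 lists on the called genes with the lowest adjusted p in each direction, at most 2, or 4 where over 10 were called (in a list with no call, the 2 members of highest mean CPM). Of these 112 genes 104 were called; not all are described. Esrrb, Zfp42, Klf4, Pou3f1, Fgf5, Otx2, Pax6, Tubb3, T, Mixl1, Tbx6, Tpbpa, Elf5, Gata3, Sox17, Foxa2, Gata4, Col1a1 and Col3a1 are markers of the label check. Trh was named after its values were seen. Promoters come from a RefSeq table for GRCm38.p6 that does not hold every gene.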

Additional observations from a re-analysis of the deposited data

Results flagged for a closer look

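A difference between the genotypes was tested directly by the interaction for every gene, and 2163 genes passed it. Among the genes chosen by rule, 16 had a called step in each genotype, in opposite directions, and these are listed with their interaction (log2) as values. Those that fell in WT and rose in TKO were Asz1 (6.29), Pramel3 (6.22), Kdr (5.62), AV320801 (5.08), Taf7l (3.57), Slc25a31 (3.59), Tex13b (4.55), Ifitm3 (1.81), Gata6 (6.33), Gata2 (4.97), Zbp1 (4.32), Pmaip1 (1.36), Cdkn1a (0.76) and Id2 (1.89). Gata6, an endoderm regulator, stood at 1.16 and 1.06 CPM in WT day 2, 0.103 and 0.0627 in WT day 4, 0.437 and 0.328 in TKO day 2, and 3.73 and 1.08 in TKO day 4. Those that rose in WT and fell in TKO were Pim2 (-0.83) and the Polycomb-associated gene Phf19 (-1.47). Phf19 went from 5.34 and 4.95 to 9.81 and 11.2 CPM in WT and from 7.76 and 8.05 to 6 and 5.61 in TKO.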

How the results depend on the processing

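Of the 104 called genes chosen by rule, 75 kept their call whichever 1 of the 8 libraries was left out, 71 did so under every alternative run, and none changed sign. Positive calls numbered 1432 and ran from 806 to 1477 with 1 library left out; negative calls numbered 731 and ran from 328 to 869. The positive count fell by over 1.5 times without TKO day 2 replicate 1 (806) or replicate 2 (842), WT day 2 replicate 2 (855) or WT day 4 replicate 1 (946), and the negative count without the first 3 of these (383, 328 and 379). Lists ran from 6 to 13 (naive), 10 to 14 (piRNA), 11 to 17 (meiotic), 11 to 15 (testis-restricted), 16 to 22 (X-linked), 8 to 19 (Zscan4 state) and 6 to 9 (cholesterol, negative). Of 49 list counts of 1 call or more, 38 moved by over 1.5 times with some library left out. With only the 8 libraries fitted, fewer residual degrees of freedom remained; the naive list then held 5 calls, and 13 of the 104 genes lost theirs, Stat2 (adjusted p = 0.0594), Pla2r1 (0.0832) and Tdg (0.0657) among them. Without a filter 6 did, among them Dppa3 (0.054), Tdg (0.0569) and Srp54b (0.121), which was also lost with the length offset (4.678, adjusted p = 0.156) and the replicate block (0.0535).

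With a replicate block, 1250 genes were positive and 605 negative; the numbers share no stated day or batch, and deviations of same-numbered libraries correlated between -0.114 and 0.074 over pairs of groups. A replicate block with only the 8 libraries gave 878 positive and 437 negative calls, 4 naive, 9 Zscan4-state and 5 cholesterol calls; 84 of the 104 genes kept their call, and Dnmt3l (3.786, adjusted p = 0.052) and Msh5 (-0.984, adjusted p = 0.0693) were among those that did not. Uncalled genes near 0 changed sign: mt-Co1 (0.01) was -0.007 without a filter, -0.012 with a stricter one, -0.004 with 8 libraries, -0.004 with the block as well and -0.016 with the length offset, and with 1 library left out mt-Co1 ran from -0.073 to 0.087, Dnmt1 from -0.084 to 0.096 and Dnmt3b from -0.799 to 0.011. Having 2 libraries per group and low counts in WT day 4 limit the precision of the largest values.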
